A study of Rattus norvegicus with 6 samples.

Results

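The 10 genes described here are the vascular endothelial growth factor (VEGF) and angiopoietin group of angiogenic factors, taken by gene symbol from the 34156 genes of a table of counts per gene. They are the ligands Vegfa, Vegfb, Vegfc, Vegfd and Pgf, the receptor Flt1, the co-receptor Nrp1, the angiopoietins Angpt1 and Angpt2, and the angiopoietin-like factor Angptl4. All 10 were found in the table. RNA-seq was run on 6 libraries of rat RA-FLS, which are fibroblast-like synoviocytes labelled as rheumatoid arthritis cells of WT genotype. The TNF-α group (n = 3) received 10 ng/mL TNF-α, and the TNF-α+EMO group (n = 3) received 10 ng/mL TNF-α together with 80 μmol/L emodin (EMO), an anthraquinone of rhubarb. The labels give day 5 for every library, while the written methods of the study describe a shorter incubation, so the exposure time is uncertain. The cells were obtained from a commercial supplier. Rat strain and age are not stated in the sources used here, and all libraries carried TNF-α, so cells without it were not compared.

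Angiogenesis, the growth of new vessels from existing ones, feeds the swollen synovium of an inflamed joint. VEGF ligands act on receptor tyrosine kinases of endothelial cells, with VEGFA as the principal driver of blood vessel growth, VEGFC and VEGFD acting mainly on lymphatic vessels, and PGF and VEGFB binding FLT1. Neuropilins hold the ligands as co-receptors. Angiopoietin 1 activates the TIE2 receptor and steadies vessels, whereas angiopoietin 2 commonly opposes it. Synoviocytes are known as a source of the ligands, while most of the receptors belong to endothelial cells. The transcription of Vegfa is known to rise under low oxygen through hypoxia-inducible factors (HIF) and during the integrated stress response through ATF4.

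The promoters of 8 of the 10 genes were matched by symbol in RefSeq (GRCr8), and those of 4 are shown, because these genes cover both directions of change described below. Each sequence is the 250 bases before the transcription start, 5′ to 3′ on the strand of the gene, and capitals mark the GC box bound by SP1 (GGGCGG), the TATA motif (TATAAA) and the HIF cores (ACGTG or GCGTG), on either strand. The windows are chr9:22452604-22452853 (plus strand) for Vegfa, chr1:213607153-213607402 (minus strand) for Vegfb, chrX:33739893-33740142 (minus strand) for Vegfd and chr12:12333180-12333429 (plus strand) for Flt1. Vegfa has a further start in RefSeq, which is not shown.
Vegfa: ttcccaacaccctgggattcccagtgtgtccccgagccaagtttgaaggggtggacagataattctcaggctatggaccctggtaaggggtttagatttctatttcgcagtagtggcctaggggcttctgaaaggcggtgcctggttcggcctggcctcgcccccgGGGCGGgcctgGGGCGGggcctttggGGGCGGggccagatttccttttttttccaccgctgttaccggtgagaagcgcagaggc
Vegfb: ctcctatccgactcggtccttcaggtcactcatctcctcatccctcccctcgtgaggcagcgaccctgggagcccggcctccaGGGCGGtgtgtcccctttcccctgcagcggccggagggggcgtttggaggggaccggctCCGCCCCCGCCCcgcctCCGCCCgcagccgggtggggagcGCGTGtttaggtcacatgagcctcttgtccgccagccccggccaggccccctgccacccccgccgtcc
Vegfd: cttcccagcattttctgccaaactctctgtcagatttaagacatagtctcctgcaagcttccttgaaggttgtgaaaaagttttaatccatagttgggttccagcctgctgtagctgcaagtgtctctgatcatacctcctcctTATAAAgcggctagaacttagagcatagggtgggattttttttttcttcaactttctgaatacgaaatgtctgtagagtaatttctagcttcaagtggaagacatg
Flt1: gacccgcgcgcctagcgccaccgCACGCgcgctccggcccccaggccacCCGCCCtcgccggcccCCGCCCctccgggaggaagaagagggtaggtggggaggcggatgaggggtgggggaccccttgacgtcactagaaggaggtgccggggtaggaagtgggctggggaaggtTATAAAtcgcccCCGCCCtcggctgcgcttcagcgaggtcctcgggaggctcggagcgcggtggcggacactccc
The Vegfa window held 3 GC boxes and neither HIF core. The Vegfb window held 4 GC boxes and 1 HIF core. Flt1, which fell, held 3 GC boxes, 1 TATA motif and 1 HIF core, so GC boxes stood on genes of either direction. The Vegfd window held no GC box and 1 TATA motif, at a GC content of 40.8% against 60.4% for Vegfa and 73.2% for both Vegfb and Flt1. Among all 33469 promoters of this length, the GC box was in 30.5% and the TATA motif in 12.9%, while the HIF core with A was in 16.6% and that with G in 25.9%, and the median GC content was 51.2%. A motif match is a string of letters and not an observed binding site. Sites beyond the 250 bases were not searched, so a motif absent from a window may lie elsewhere at the gene.

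The libraries held 16813322 to 17794455 counts. Between TNF-α+EMO replicate 3 and the other libraries of its group, the counts differed by a chi-square per gene of 16 to 25, against 4.75 to 6.66 for the other replicate pairs. A gene is said to have risen or fallen where edgeR gave an adjusted p under 0.05, and it is called a differentially expressed gene (DEG) where the change was also over 2-fold. Most of the transcriptome differed between the groups. Of the 13614 genes tested, 39.4% rose and 41.4% fell (80.9% in either direction), while 19.5% were higher DEGs and 27.8% lower DEGs (47.3% together). Log2 fold changes are TNF-α+EMO over TNF-α throughout. The scaling between libraries takes most genes as unchanged, although 80.9% rose or fell. Fold changes and normalized counts are therefore relative, and RNA amounts per cell were not measured.

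Among the 10 genes, Vegfa and Vegfb rose with EMO, while Vegfc, Vegfd, Pgf, Flt1, Nrp1 and Angpt1 fell. Angptl4 did not pass the test, and Angpt2 had too few counts to be tested. Thus 2 of the 9 tested rose and 6 fell, set against the 39.4% and 41.4% over all genes, or 8 of 9 against 80.9%. Vegfa was the 1 higher DEG and the 6 that fell were all lower DEGs, so 7 of the 9 were DEGs against 47.3% of all genes. Of the 9, 4 (Vegfd, Pgf, Flt1 and Angpt1) had at least 10 counts only in the TNF-α libraries, so they entered the test through the group in which they were higher, and these counts are a description only. The libraries of the groups did not overlap for 8 of the 9 genes tested, where 82.9% of all genes tested showed no overlap, nor for the untested Angpt2. In the TNF-α+EMO group 3 of the 9 stayed at 3 counts or fewer in each library, against 3.59% of all genes tested. The median log2 fold change of the 9 was -3.65, beside -0.01 over all genes, whose lower and upper 10% lay at -3.18 and 1.56. In bulk samples, fewer cells of a type and less RNA per cell cannot be told apart.

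**Figure D1:**
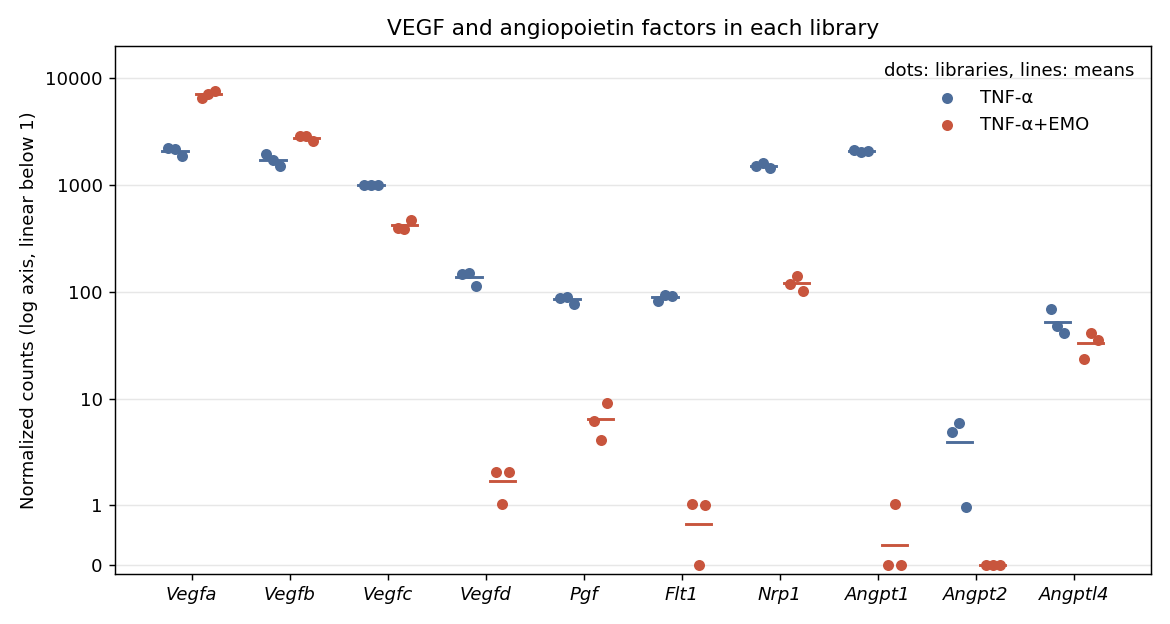
Normalized counts of the 10 genes in each library, on a log axis that is linear below 1, with TNF-α and TNF-α+EMO libraries side by side. Each point is 1 library and the bars are group means. Vegfa and Vegfb lie higher with EMO, the libraries overlap only for Angptl4, and Angpt1 drops from about 2074 to near 0.

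Vegfa (ENSRNOG00000019598, Rnor_6.0 chromosome 9, 17340341 to 17355681, plus strand) stood at 2234, 2181 and 1879 normalized counts under TNF-α alone and at 6493, 7069 and 7599.9 once EMO was added. Every TNF-α+EMO library was above every TNF-α library. The mean went from 2098 ± 191 to 7054 ± 554 (SD, n = 3 each). This is a log2 fold change of 1.75 (SE 0.08, adjusted p = 6.5e-09 by edgeR), or 3.36-fold, and 92.0% of all genes tested had a lower value. Vegfa encodes the best known driver of blood vessel growth.

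Vegfb (chromosome 1, 222239022 to 222242644, minus strand) encodes a ligand of FLT1 linked to lipid handling and cell survival more than to vessel growth. It had 1938, 1697 and 1502 normalized counts with TNF-α, and 2847, 2856 and 2594 with EMO added. The groups did not overlap. The increase from 1712 ± 218 to 2766 ± 148 (SD, n = 3 each) was 1.62-fold, a log2 fold change of 0.69 (SE 0.09, adjusted p = 3.0e-05 by edgeR). When the test asked for a change beyond 2-fold, only Vegfa of the 10 genes remained among those that rose.

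Vegfc (chromosome 16, 40440207 to 40555576, minus strand), a lymphatic growth factor, moved the opposite way. Its normalized counts were 1001, 989.8 and 1007 with TNF-α and 397, 389.9 and 472 with EMO, and the groups did not overlap. The mean fell from 999 ± 8.83 to 419.5 ± 45.3 (SD, n = 3 each), for a log2 fold change of -1.25 (SE 0.09, adjusted p = 2.1e-07 by edgeR), or 2.38-fold lower.

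Vegfd (chromosome X, 31816436 to 31851715, minus strand), the other lymphatic ligand, was a low transcript that nearly vanished with EMO. It had 146, 148 and 114 normalized counts with TNF-α against 2.06, 1.02 and 2.04 with EMO. The group totals were 418 raw counts against 5, a scaled ratio of 79.7-fold lower with an exact 95% interval of 33.9 to 247 that covers counting error only (adjusted p = 1.5e-08 by edgeR). Pgf (chromosome 6, 108994018 to 109004598, minus strand), the placenta growth factor, had 88.3, 88.7 and 77.0 normalized counts with TNF-α and 6.19, 4.09 and 9.17 with EMO. Both groups stood apart without overlap. The mean of Pgf fell from 84.7 ± 6.67 to 6.48 ± 2.55 (SD, n = 3 each), for a log2 fold change of -3.68 (SE 0.32, adjusted p = 9.9e-07 by edgeR), or 12.8-fold lower.

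Within each library the 5 ligands were set against each other per length, in FPKM, the fragment count scaled by transcript length and by the mapped reads of the library. Under TNF-α alone Vegfa made up 27.5, 28.8 and 27.4% of the summed FPKM of the 5, and with EMO 50.6, 52.8 and 56.0%. The share of Vegfa thus went from 27.9 ± 0.765% to 53.1 ± 2.73% (SD, n = 3 each), with no overlap. That of Vegfb was 45.1 ± 2.00% and 41.5 ± 3.13%, with overlapping libraries. The share of Vegfc dropped from 22.2 ± 2.03% to 5.26 ± 0.482%, and those of Pgf and Vegfd from 2.56 ± 0.0960% to 0.111 ± 0.0421% and from 2.18 ± 0.176% to 0.0156 ± 0.00555%. The summed FPKM of the 5 ligands was 133, 124 and 113 with TNF-α and 208, 218 and 221 with EMO. Relative to the mapped reads of the library the pool was thus larger, and it was mostly Vegfa and Vegfb. These shares carry no test of their own.

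**Figure D2:**
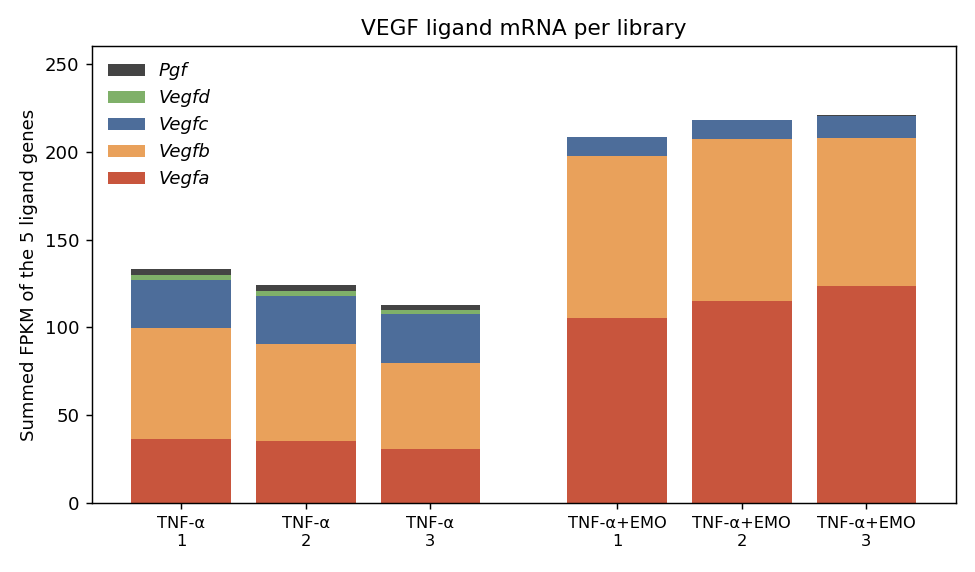
FPKM of each of the 5 VEGF ligand genes, stacked for each of the 6 libraries, so that the bar height is their summed FPKM. As a share of that sum, the Vegfa part goes from 27.4 to 28.8% in TNF-α libraries to 50.6 to 56.0% in TNF-α+EMO libraries, and the Vegfc part shrinks.

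Counts of a pair of genes in the same library were also divided. The Vegfa to Vegfb ratio was 1.15, 1.29 and 1.25 with TNF-α and 2.28, 2.48 and 2.93 with EMO, a 2.07-fold higher geometric mean. The Vegfa to Vegfc ratio was 2.23, 2.20 and 1.87 against 16.4, 18.1 and 16.1, or 8.04-fold higher. No TNF-α library reached a TNF-α+EMO library in either ratio. The Nrp1 to Nrp2 ratio, of the neuropilin genes, was 0.0721, 0.0775 and 0.0764 with TNF-α and 0.0429, 0.0526 and 0.0394 with EMO, 1.69-fold lower. Each of these 3 ratios gave p = 0.1 in an exact two-sided permutation test (adjusted p = 0.1 over the 3), which is the smallest p that 3 libraries against 3 can give. The Angpt2 to Angpt1 and Vegfa to Flt1 ratios were not formed, since a group was at 3 counts or fewer.

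Flt1 (chromosome 12, 9034308 to 9205905, plus strand) encodes VEGF receptor 1, which also exists as a soluble decoy. It had 82.4, 92.6 and 91.6 normalized counts with TNF-α and 1.03, 0 and 1.02 with EMO. Its libraries summed to 273 raw counts against 2, a scaled ratio of 130.2-fold lower with an exact 95% counting interval of 35.7 to 1080.1 (adjusted p = 1.1e-07 by edgeR). Nrp1 (chromosome 19, 61332351 to 61485858, plus strand), the co-receptor of VEGFA and of class 3 semaphorins, had 1503, 1592 and 1446 normalized counts with TNF-α and 118, 141 and 102 with EMO. Neither gene overlapped between groups. The mean of Nrp1 fell from 1513 ± 73.5 to 120.2 ± 19.8 (SD, n = 3 each), for a log2 fold change of -3.65 (SE 0.12, adjusted p = 2.5e-10 by edgeR), which is 12.6-fold lower.

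Of 13 receptors and co-receptors listed, 9 were tested, Flt1 and Nrp1 among them. These 9 fell, 8 of them as DEGs, with a median log2 fold change of -2.53, and 2 of them (Flt1 and Ptprb) had at least 10 counts only in the TNF-α libraries. Over all genes tested, 41.4% fell and 27.8% were lower DEGs. Nrp2, the neuropilin that binds VEGFC, fell from 20094 ± 1035 to 2669 ± 78.8 normalized counts (log2 fold change -2.91, SE 0.06, adjusted p = 1.9e-11). Sdc1, a heparan sulfate proteoglycan, fell by 2.53 on the log2 scale, Itga5 by 2.09, Itgav by 1.83 and Gpc1 by 1.23, while Itgb1 fell by 0.31. Ptprb, the phosphatase that acts on TIE2, had a mean of 64.8 normalized counts with TNF-α and 0.682 with EMO. The main signalling receptors were barely present, since Kdr, which encodes VEGF receptor 2, had 0 counts in every library, Flt4 had a mean of 3.58 with TNF-α and 0 with EMO, Tek had 12.4 and 5.12, and Tie1 had 0.650 and 3.07.

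Angpt1 (chromosome 7, 81342280 to 81592206, minus strand) encodes the ligand that activates TIE2 and had the highest mean FPKM of the 10 genes with TNF-α. Under TNF-α alone it stood at 2131, 2022 and 2070.1 normalized counts, and once EMO was added at 0, 1.02 and 0, that is a single read in 1 library. The raw counts summed to 6371 against 1, a scaled ratio of 6074-fold lower whose exact 95% counting interval was 1089.9 to 239970 (adjusted p = 4.6e-12 by edgeR). Angpt2 (chromosome 16, 75966352 to 76016195, plus strand), the antagonist in many settings, had 5, 6 and 1 raw counts with TNF-α and 0 in each library with EMO. Those 12 counts against 0 are 3.81-fold lower when 3 counts over the TNF-α+EMO group are taken as the floor. This value leaves out counting error in the 12 and so is no strict bound. Angpt2 was outside the test, and it overlaps Mcph1 on the other strand, which had up to 409 counts in a library, so without knowledge of the strand setting its few reads cannot be assigned with certainty.

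Angptl4 (chromosome 7, 18627808 to 18634079, minus strand), a secreted inhibitor of lipoprotein lipase that is raised by low oxygen and by PPAR, had 68.7, 47.8 and 40.9 normalized counts with TNF-α and 23.7, 40.9 and 35.7 with EMO. The groups overlapped. The log2 fold change of -0.65 (SE 0.30) did not pass the test (adjusted p = 0.070 by edgeR). Over the fits that left out 1 library it ranged from -0.87 to -0.43. It passed only without TNF-α replicate 3 (-0.87, adjusted p = 0.039), and not when the same library was left out with the tested genes held fixed (-0.80, adjusted p = 0.053), while without TNF-α replicate 1 or TNF-α+EMO replicate 1 the adjusted p was 0.21 and 0.22. Of the 10 members listed for the angiopoietin and angiopoietin-like family, 4 were tested. Of these, Angpt1 had at least 10 counts only in the TNF-α libraries. Beside 41.4% over all genes, 3 fell. Apart from Angpt1, these were Angptl2, an inflammation-linked secreted factor, from 1552 ± 35.8 to 51.9 ± 4.46 normalized counts (log2 fold change -4.90, SE 0.10, adjusted p = 1.2e-11), and Angpt4, the TIE2 ligand, from 712 ± 37.6 to 295 ± 18.0 (log2 fold change -1.27, SE 0.09, adjusted p = 1.5e-07).

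**Figure D3:**
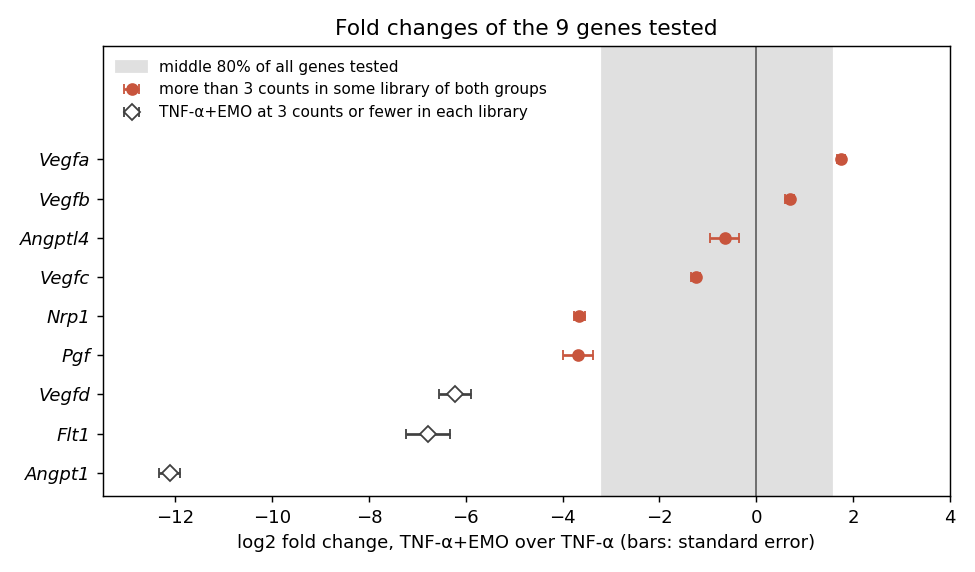
Log2 fold change (TNF-α+EMO over TNF-α) of the 9 genes tested, as points with bars for the standard error worked back from the edgeR test. Grey lies between the lower and upper 10% of all genes, and open diamonds are genes at 3 counts or fewer in each TNF-α+EMO library. For these diamonds the bars are narrow beside DESeq2, whose standard errors were 1.18 for Angpt1, 1.06 for Flt1 and 0.69 for Vegfd. The bars show 0.21, 0.45 and 0.33, in the same order. Vegfa at 1.75 and Vegfb at 0.69 are the members above 0, and Angpt1 is lowest at -12.12, a fitted value that rests on 1 count with EMO.

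Compared per length within a group, the FPKM order with TNF-α was Angpt1 (63.8 ± 1.69), Vegfb (55.7 ± 7.01), Vegfa (34.4 ± 3.06), Vegfc (27.3 ± 0.295) and Nrp1 (15.7 ± 0.735, SD, n = 3). Angpt1 and Vegfb overlapped and so were not separated, while the rest of these 5 did not overlap with their neighbours. Pgf (3.15 ± 0.242) and Vegfd (2.69 ± 0.374) overlapped, and Angptl4 (1.61 ± 0.442), Flt1 (0.741 ± 0.0476) and Angpt2 (0.0929 ± 0.0614) came last. With EMO the order was Vegfa (114.7 ± 9.10), Vegfb (89.3 ± 4.75) and Vegfc (11.4 ± 1.23), without overlap. Nrp1 (1.24 ± 0.204) and Angptl4 (1.02 ± 0.270) overlapped, Pgf followed at 0.240 ± 0.0943, and Vegfd (0.0335 ± 0.0116), Angpt1 (0.0104 ± 0.0180), Flt1 (0.00566 ± 0.00490) and Angpt2 (0) overlapped with each neighbour. Angpt1 was thus among the 2 highest with TNF-α and among the 4 lowest with EMO.

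The genes whose pattern over the 6 libraries lay nearest to that of Vegfa were Tmem9b, Asl, Vat1, Rab40c and Rce1, of 10276 genes compared. Their root mean square differences from Vegfa in centred log2 CPM were 0.0419, 0.0497, 0.0525, 0.0535 and 0.0564. All 5 rose, with log2 fold changes of 1.75, 1.79, 1.76, 1.79 and 1.77, in the same order. The likeness is a description over 6 libraries, most of it the difference between the groups.

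Other secreted angiogenic factors mostly fell. Of 25 listed, 18 were tested. Among them 2 rose, 14 fell and 2 did not pass, where 39.4% of all genes tested rose and 41.4% fell. The median log2 fold change of the 18 was -3.05. Of these, 3 (Cxcl12, Apln and Hgf) had at least 10 counts only in the TNF-α libraries and so had to be lower with EMO. Grn (progranulin) rose from 23544 ± 761 to 58809 ± 1935 normalized counts and Pdgfa, a platelet-derived growth factor chain, from 486 ± 15.4 to 799 ± 61.3. Ccn2, the matricellular growth factor CTGF, fell from 11149 ± 522 to 65.2 ± 23.4 (log2 fold change -7.41, adjusted p = 7.1e-10), and Fgf2 from 49.2 ± 2.41 to 8.54 ± 2.16. Cxcl12 and Hgf had means of 2777 and 68.1 normalized counts with TNF-α and 0 in every library with EMO.

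Genes listed as endogenous inhibitors of angiogenesis mostly fell as well. Whether each acts as an inhibitor was not examined here, Chrdl1, Vash2 and Isl1 among them. Of 23 listed, 19 were tested. Among them 16 fell, 1 rose and 2 did not pass, where 41.4% of all genes tested fell and 39.4% rose. The median log2 fold change of the 19 was -2.80, and 1 of them (Cxcl9) had at least 10 counts only in the TNF-α libraries. The thrombospondins, secreted inhibitors of endothelial growth, were the extreme case. Thbs1 fell from 33126 ± 596 to 120.3 ± 15.6 normalized counts (log2 fold change -8.10, adjusted p = 8.1e-13) and Thbs2 from 24761 ± 2119.8 to 15.7 ± 2.53 (log2 fold change -10.61, adjusted p = 8.1e-13). Serpinf1, which encodes PEDF, fell by 1.35 on the log2 scale. Chrdl1, the listed gene that rose, had a mean of 0.325 with TNF-α and 27.7 with EMO. It had at least 10 counts only in the TNF-α+EMO libraries and so had to be higher with EMO. With at least 10 counts required in every library, the DEGs were 9 in place of 15 for the factors and 13 in place of 17 for the inhibitors.

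Genes for the class 3 semaphorins and plexins, which share neuropilins with VEGF, were tested for 10 of 12. Among them 8 fell, 1 rose and 1 did not pass, where 41.4% of all genes tested fell and 39.4% rose. Their median was -1.85, and 2 (Sema3a and Sema3g) had at least 10 counts only in the TNF-α libraries. Sema3b rose (log2 fold change 1.05), and Sema3f (-3.79), Plxnd1 (-3.30), Plxna1 (-2.02) and Sema3c (-0.40) fell. Sema3a had a mean of 539 normalized counts with TNF-α and 2.73 with EMO. For the proteases that process VEGFC and VEGFD, 5 of 9 were tested, 4 fell and 1 rose, beside the same shares over all genes, with a median of -1.23. Ctsd (cathepsin D) rose by 1.22 on the log2 scale, while Furin, Pcsk5 and Pcsk7, the proprotein convertases, fell by 1.65, 1.23 and 0.50. Adamts14 had a mean of 276 normalized counts with TNF-α and 1.71 with EMO. It had at least 10 counts only in the TNF-α libraries and so had to be lower with EMO.

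The regulators known to act on Vegfa were examined from lists, beside 39.4% that rose and 41.4% that fell over all genes tested. Of the oxygen sensing genes and HIF subunits, 11 of 13 were tested, 4 rose, 3 fell and 4 did not pass, with a median log2 fold change of 0.00. Hif1a rose from 3549 ± 103 to 5033 ± 586 normalized counts (log2 fold change 0.50, adjusted p = 1.6e-04), Elob by 0.59 and Vhl by 0.38, while Arnt did not pass (-0.05, adjusted p = 0.50). Egln3 and Egln1, the prolyl hydroxylases that mark HIF for destruction, fell by 3.71 and 0.78, and Cited2 by 0.91. Epas1 had 0 counts in every library. Of the HIF target genes other than Vegfa, 31 of 34 were tested. Of these, 1 (Aldoc) had at least 10 counts only in the TNF-α libraries. Among the 31, 16 rose, 10 fell and 5 did not pass, with a median of 0.34. Among those with a mean of at least 100 counts, the highest were Ndrg1 (1.66), Bnip3 (1.47) and Aldoa (1.40) and the lowest Adm (-5.00), Egln3 (-3.71) and Ldha (-1.75). HIF targets thus went in both directions, as did the genes tested as a whole.

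Target genes of ATF4, the transcription factor of the integrated stress response, showed another pattern. Among the 20 tested, Atf4 itself included, 17 rose, 2 fell and 1 did not pass, where 39.4% of all genes tested rose and 41.4% fell. Their median log2 fold change was 2.50. Atf4 itself rose from 4819.6 ± 34.2 to 33675 ± 1279 normalized counts (log2 fold change 2.80, adjusted p = 1.1e-11), and Ddit3, Stc2 and Atf3 rose by 5.94, 5.85 and 5.63 on the log2 scale. The lowest with a mean of at least 100 counts were Cebpb (-0.71), Psat1 (-0.57) and Phgdh (0.11), the last of which did not pass. Of the PPAR factors and their targets, 19 of 28 were tested, 5 rose, 13 fell and 1 did not pass, with a median of -0.68, and 4 of the 19, Plin4 among them, had at least 10 counts only in the TNF-α libraries. Ppara rose by 0.63 and Ppard fell by 0.68, and Pparg had at most 1 count in a library. By the same limit on the mean, Acadl (1.27) and Rxrb (1.03) were the highest and Plin4 (-5.54), Cpt1a (-2.89) and Rxra (-2.13) the lowest. The part of any regulator in the values of Vegfa or Angptl4 was not tested.

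**Figure D4:**
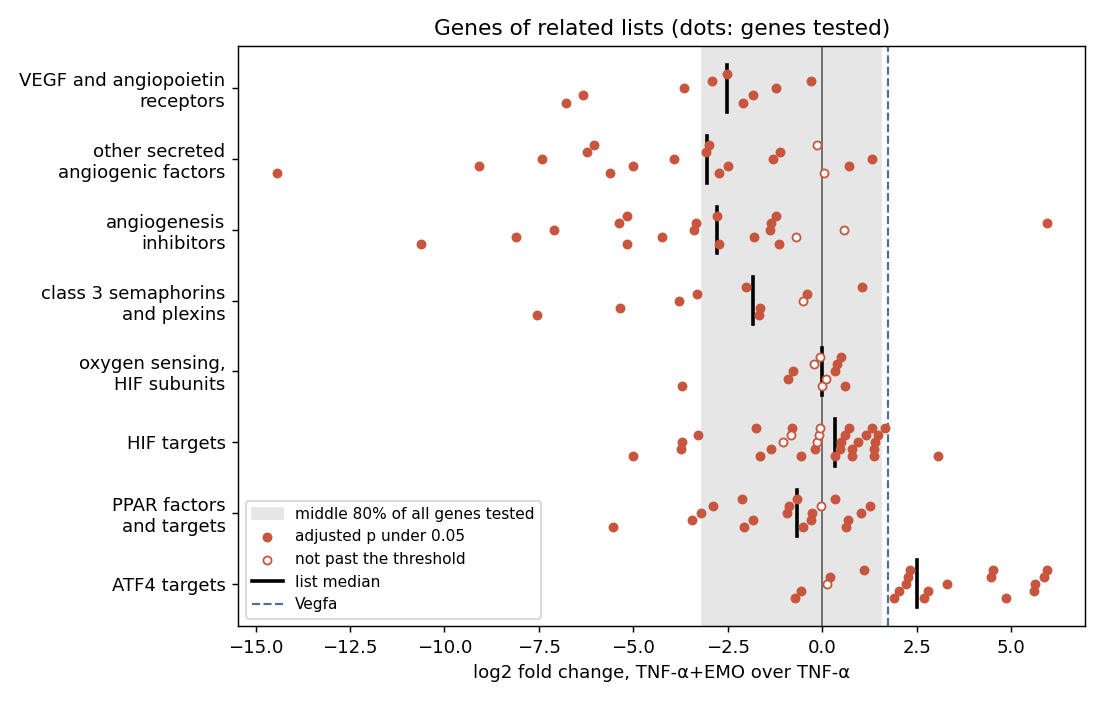
Log2 fold change (TNF-α+EMO over TNF-α) of each tested gene of the pathway lists, 1 row a list, with filled dots past an adjusted p of 0.05, a bar at the list median, grey between the lower and upper 10% of all genes and a dashed line at Vegfa. Receptors, other angiogenic factors and listed inhibitors lie mostly below 0. The list of ATF4 targets, which holds Atf4 itself, lies mostly above 0 (median 2.50), and the oxygen sensing genes around 0.

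Markers of other cell types were set beside these values. Of 14 endothelial markers in the table, 5 (Kdr, Cldn5, Emcn, Robo4 and Sox17) were at 0 in every library, and the summed normalized counts of the list were 575 to 648 with TNF-α and 251 to 342 with EMO. Erg, Vwf and Icam2 fell, from means of 271, 53.4 and 24.1 normalized counts to 8.20, 4.46 and 6.13. Vwf had at least 10 counts only in the TNF-α libraries. None of the tested endothelial markers rose, while Egfl7 (233 and 240) and Mmrn2 (8.13 and 10.6) did not pass. Of the 5 lymphatic markers none was tested, Prox1 and Ccl21 were at 0, and the sum was 8.77 to 22.4 with TNF-α and 0 with EMO. The pericyte and smooth muscle list summed to 3882 to 4217 against 218 to 242 with Rgs5 and Kcnj8 at 0, the macrophage list to 1205 to 1314 against 734 to 804 with C1qa, C1qb, Cd163 and Tyrobp at 0 (Cd14 fell from 1093 to 510.3 and Cd68 rose from 153 to 256), and the epithelial list, mostly Krt8, to 9950 to 10812 against 1985 to 2333. In the epithelial list Krt8 fell from a mean of 10389 to 2140, while Cldn4 rose from 0 to 20.8. Cldn4 had at least 10 counts only in the TNF-α+EMO libraries. Fibroblast markers summed to 197800 to 217640 with TNF-α and 35020 to 37697 with EMO, a sum made up mostly of Col1a1 and Vim. Of the 8 tested, 7 fell, beside 41.4% over all genes, and 1, Dcn, rose, from a mean of 1.62 to 28.4 normalized counts. Dcn had at least 10 counts only in the TNF-α+EMO libraries, and Lum and Fap only in the TNF-α libraries. Col1a1, Col3a1, Pdgfra and Cdh11 were abundant with TNF-α, whereas Prg4, Thy1 and Pdpn, which mark synovial lining and sublining cells, had means of 3.58, 5.21 and 0.327 normalized counts. The part of these markers in the changes of the 10 genes was not tested.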

How the data were processed

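RNA from 6 rat RA-FLS libraries (3 per group) was measured by poly(A)-selected paired-end RNA-seq. The authors deposited raw counts per gene, without normalization, and FPKM values, scaled by gene length and mapped reads; the submitters' processing notes name FastQC, Trimmomatic, HISAT2 and Rnor_6.0, and the counting program, strand setting and annotation version are not given in the sources used here. The deposited table of comparisons holds fold changes, p-values and adjusted p-values and was not used. The methods of the study call the libraries biological replicates; whether they were separate cultures is not stated, so p-values measure the spread between these libraries, which may be technical.

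Counts were filtered (at least 10 in at least 3 libraries, leaving 13614 genes), scaled by TMM (factors 0.948 to 1.05) and tested by the robust quasi-likelihood method of edgeR 4.0.16 under R 4.3.3, and p-values were adjusted by Benjamini-Hochberg over these genes. The common biological coefficient of variation was 0.121. DEGs needed both an adjusted p under 0.05 and a log2 fold change above 1 in size. Normalized counts are counts scaled to the mean effective library size. Each SE was worked back from the edgeR test, as the size of the log2 fold change over the square root of its F statistic. For genes at the floor such an SE understates the uncertainty. Library totals of 16813322 to 17794455 counts set a floor of 3 counts, and reads are not independent molecules, so intervals cover counting error only. The fit was tested on simulated counts, in which far fewer genes changed than here and as many went up as down. That run therefore says nothing about the scaling or about genes at the floor.

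The members and gene lists were chosen with earlier results of these data known. All members were named, with any tested gene of the receptor, angiopoietin, factor, inhibitor, semaphorin and processing lists, named regulators, and from the other lists the 3 highest and 3 lowest genes with a mean of at least 100 counts. Alternatives were DESeq2 1.42.0, other scalings and filters, a test against 2-fold, the replicate block and leaving out each library; leaving out a library with the genes of the main filter kept was added after seeing the data. Figures were drawn with matplotlib 3.10.9. Pecam1, Col1a2 and some other listed genes were not analysed here, and the value of 1 gene that the naming rule picked is not reported here.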

Additional observations from a re-analysis of the deposited data

How the results depend on the processing

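Of 164 log2 fold changes of the members under the alternatives, 160 kept their direction and their side of the threshold. Fits in which a member left the test are not among the 164. Of all 485 values, 459 were taken as the same, but counts of DEGs, shares and ratios only had to stay near the main value. The exceptions among members were Vegfb, which did not pass a test against a change of 2-fold, leaving 1 member that rose, and Angptl4, which passed with library totals only (-0.76, adjusted p = 0.037), with at least 10 counts in every library (-0.72, adjusted p = 0.036) and without TNF-α replicate 3 (-0.87, adjusted p = 0.039), though not without that library on the genes of the main filter (-0.80, adjusted p = 0.053), and its adjusted p reached 0.29 among the other fits without 1 library. With at least 10 counts in every library fewer genes are tested, and the members that fell were 3 (Vegfc, Nrp1 and Angptl4). The DEGs among all members were then 3 (Vegfa, Vegfc and Nrp1). Those of the other angiogenic factors were 9, of the semaphorins 5 and of the PPAR list 5. With no filter the angiopoietin family had 7 DEGs, and with library totals only the oxygen sensing list had 2, the median of all genes then lying at -0.12.

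Leaving out 1 library gave 2 to 6 members that fell and 3 to 7 DEGs, 5 to 8 semaphorin, 1 to 2 oxygen sensing and 4 to 9 PPAR DEGs. Without TNF-α replicate 1, 2 or 3, the 4 members that pass the filter only through that group leave the test, so 2, 2 and 3 fell. The semaphorin DEGs were 5 without any one of these, the PPAR DEGs 4 and 5 without TNF-α replicate 2 and 3, and the oxygen sensing DEGs 2 without either of the latter. With the genes of the main filter kept, each of the 6 fits gave 2 members that rose, 6 that fell and 7 DEGs, and the oxygen sensing DEGs were 2 without TNF-α+EMO replicate 2. DEGs over all genes were 6442, and 4666 to 7408 under the other alternatives. With the replicate block they were 6421, with 2 members that rose, 6 that fell and 7 DEGs, the HIF target DEGs were 14 in place of 15, and no member changed its call. Deviations of libraries with the same number correlated by 0.019, -0.0068 and 0.068, so no strong effect shared by number was seen. So few libraries cannot settle whether they were paired, which the sources used here do not state. Angpt2 was below the filter on low counts. Without the filter it passed in edgeR (adjusted p = 0.013), which gave 7 members that fell and 8 DEGs. Its fitted log2 fold change of -5.01 (SE 1.67) stands against a group at 0 counts and is no bound. The counts give 3.81-fold lower with the TNF-α+EMO group set at the floor, without counting error in the TNF-α group.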
